A study of Arabidopsis thaliana with 12 samples.

Results

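The genes described are the 10 Arabidopsis loci that encode the abscisic acid (ABA) receptors PYR1 (AT4G17870), PYL1 (AT5G46790), PYL2 (AT2G26040), PYL3 (AT1G73000), PYL4 (AT2G38310), PYL5 (AT5G05440), PYL6 (AT2G40330), PYL7 (AT4G01026), PYL8 (AT5G53160) and PYL9 (AT1G01360). They are given by a fixed set of loci, a rule that holds no measured value, and are 10 of the 37336 genes in the expression table. The set was chosen with earlier results of these data known. RNA of whole seedlings was sequenced in 4 groups of 3 samples, which were nontransformed Col-0 (WT) or homozygous T3 Col-0 plants that carried CsPYL1_5m, each kept for 3 hours with 5 μM iSB09 or with mock solution (0.1% DMSO). CsPYL1_5m is an ABA receptor of sweet orange with 5 substitutions, and iSB09 is a synthetic sulfonamide agonist of ABA receptors. The transgene was tagged with HA and driven by the 35S promoter, which is active in most tissues, and its own transcript was not analysed here. Whether the CsPYL1_5m seedlings came from a single transgenic line was not given in the sources used here. The labels give 12 days of growth in liquid medium for every sample, whereas the methods of the study give 10-day-old seedlings. The study describes its replicates as independent experiments.

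ABA receptors are soluble proteins that close over the hormone and then bind and inhibit clade A type 2C protein phosphatases (PP2Cs). With the phosphatases inhibited, SnRK2 kinases stay active and phosphorylate ABF-type transcription factors, so that the receptors stand at the start of the pathway that shuts stomata and turns on desiccation genes. The receptors of subfamily III (PYR1, PYL1, PYL2 and PYL3) form dimers that the hormone has to open, whereas those of subfamily II (PYL4, PYL5 and PYL6) and subfamily I (PYL7, PYL8 and PYL9) are monomers, which can bind ABA and phosphatases without that step.

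Levels are given in TPM, a measure relative to all transcripts of a sample and to gene length, so that levels of different genes can be compared. Genes had 21502002 to 30696831 counted reads per library, with the 6 CsPYL1_5m libraries above the 6 of WT throughout. Genotype cannot be told apart from this depth or from any batch that goes with it, though the sources used here name no batch. Replicate 2 of iSB09-treated WT stood apart from its group, with a chi-square per gene of 67.9 and 44.0 against the other replicates, which gave 9.81 between themselves. The larger shifts of member values without it are given beside the results. Markers of shoot (4 of 4) and root (4 of 4) were at 1 TPM or more in all samples. The summed shoot level was 29638 to 31999 TPM in mock-treated and 23612 to 26982 TPM in iSB09-treated CsPYL1_5m plants, and 31354 to 34151 and 24552 to 33263 TPM in WT. The summed root level was 148 to 171 and 135.8 to 156 TPM in CsPYL1_5m plants, and 126 to 143.7 and 86.2 to 120.3 TPM in WT. In contrast, none of 3 seed storage markers was at that level in all samples of a group (summed level 0 to 1.92 TPM, with CRC at 0 in both mock groups). The summed level of the guard cell markers FAMA and MYB60 was 27.0 to 28.8 TPM in mock-treated and 9.34 to 11.8 TPM in iSB09-treated CsPYL1_5m plants, and 30.8 to 37.3 and 24.9 to 26.9 TPM in WT. The part of these marker shifts in the receptor values was not tested. In whole seedlings, fewer cells of a type and less RNA per cell cannot be told apart.

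The stretches of 250 bases before the annotated starts of 3 receptor genes are shown, which are PYL4 and PYL6 with the largest falls and PYL7 as the member whose mean was higher with iSB09 in both genotypes. They were read 5′ to 3′ on the strand of each gene from the TAIR10.1 genome of RefSeq, and capitals mark the core of the ABA-responsive element, the letters ACGTG on either strand (CACGT when read from the other strand), which ABF-type factors are known to bind. PYR1 lies on chr4:9928587-9929875 (plus strand), PYL4 on chr2:16049918-16051356 (plus strand), PYL6 on chr2:16844588-16846194 (minus strand) and PYL7 on chr4:446978-448511 (plus strand). The other members lie on chr5:18983540-18984923 (PYL1, minus strand), chr2:11094258-11095542 (PYL2, minus strand), chr1:27462983-27463968 (PYL3, plus strand), chr5:1608988-1610527 (PYL5, plus strand), chr5:21560601-21562709 (PYL8, plus strand) and chr1:141870-143261 (PYL9, plus strand). With the exons of all annotated transcripts of a gene merged, each of the 7 genes of subfamilies III and II has a single exonic stretch. PYL7 and PYL9 have 3 such stretches and PYL8 has 2.
PYL4, chr2:16049668-16049917, plus strand: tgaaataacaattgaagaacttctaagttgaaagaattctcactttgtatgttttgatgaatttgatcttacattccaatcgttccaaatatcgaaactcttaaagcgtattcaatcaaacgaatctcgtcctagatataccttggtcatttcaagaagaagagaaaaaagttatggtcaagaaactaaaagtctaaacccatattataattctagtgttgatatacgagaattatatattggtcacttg
PYL6, chr2:16846195-16846444, minus strand: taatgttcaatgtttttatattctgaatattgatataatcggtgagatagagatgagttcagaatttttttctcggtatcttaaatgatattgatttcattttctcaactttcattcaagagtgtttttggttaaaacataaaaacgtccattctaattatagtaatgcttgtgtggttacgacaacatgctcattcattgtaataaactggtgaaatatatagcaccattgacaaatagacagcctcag
PYL7, chr4:446728-446977, plus strand: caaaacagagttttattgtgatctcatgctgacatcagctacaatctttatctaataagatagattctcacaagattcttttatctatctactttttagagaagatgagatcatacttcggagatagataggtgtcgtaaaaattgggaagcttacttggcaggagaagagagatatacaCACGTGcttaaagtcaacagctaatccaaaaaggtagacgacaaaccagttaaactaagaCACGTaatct

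PYL3 had 1 match to the core that starts 70 bases before the start, and PYL7 had 3 matches at 70, 69 and 10 bases, the first pair of which are both strands of a single G-box (CACGTG). The core was found in 20.9% of the 37049 windows of the same length taken from all nuclear genes of the table, and the G-box in 5.46%. PYL4, PYL5 and PYL6, which had the largest falls, held no such letters in this window, and neither did PYL1, PYL2, PYL8 and PYL9. The W-box core TTGAC, known as a site of WRKY factors, was found on either strand once each in PYL4, PYL6 and PYL7, and in 44.0% of all windows. A match here is a run of letters, not a shown binding site.

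In mock-treated WT, the receptor genes spanned levels from a few reads to the 374 TPM of PYL4, and PYL4 alone made up 53.1% ± 0.946 (SD, n = 3) of their summed level. PYL4, whose transcripts are known to respond to jasmonate as well as to ABA, was at 351, 374 and 360 TPM in replicates 1, 2 and 3. The next genes were PYR1, the receptor found through the agonist pyrabactin, at 88.9, 109.9 and 97.6 TPM, PYL8, a receptor known for its role in root ABA responses, at 75.8 ± 2.34 TPM (SD, n = 3), and PYL5 at 57.1 ± 6.37 TPM (SD, n = 3). The ranges of these 4 genes did not overlap. PYL6 (36.8 ± 4.85 TPM) and PYL1 (33.2 ± 1.41 TPM) followed with overlapping ranges (SD, n = 3 each), and below them stood PYL9 (9.46 ± 0.155 TPM), PYL2 (6.71 ± 0.930 TPM) and PYL7 (1.98 ± 0.308 TPM), each apart from the next. PYL3 was lowest with 1 to 3 reads per library, and a level of 3 reads, taken as the smallest signal, was worth 0.227 to 0.237 TPM there. This floor covers counting error only. The other genes of the family were at or near the floor as well, with 0 to 11 reads per library over all 12 samples for PYL10, PYL11, PYL12 and PYL13.

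Without ligand, no receptor passed the test of a difference between CsPYL1_5m plants and WT. None of the 9 members tested was called, against 0.0666% of all genes tested, where a call needs a log2 difference beyond 1 in either direction and an adjusted p under 0.05 (limma on log2(TPM + 0.5), Benjamini-Hochberg adjustment over all 19530 genes tested). PYL5 had the lowest adjusted p, 0.563, at 57.1 ± 6.37 TPM in WT and 66.0 ± 1.88 TPM in CsPYL1_5m plants (SD, n = 3 each), and was the only member with an unadjusted p below 0.05. Of all 19530 genes tested, 1700 had an unadjusted p that low in limma. The log2 difference of PYL5, 0.21, had a 95% interval of 0.0035 to 0.42. The intervals of PYL4, PYL8, PYL1 and PYL6 all lay between -0.26 and 0.23 on the log2 scale, whereas PYR1 (-0.22) and PYL2 (-0.33) had lower means in CsPYL1_5m plants without passing the test (adjusted p = 0.583 each with limma). The replicate ranges of 2 of the 10 members, PYL5 and PYL8, did not overlap between the genotypes, beside 14.8% of all genes tested. The order of levels in mock-treated CsPYL1_5m plants was that of mock-treated WT, except that PYR1 (84.8 ± 6.09 TPM) and PYL8 (79.8 ± 1.85 TPM) overlapped and PYL6 and PYL1 did not (SD, n = 3 each).

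**Figure D1:**
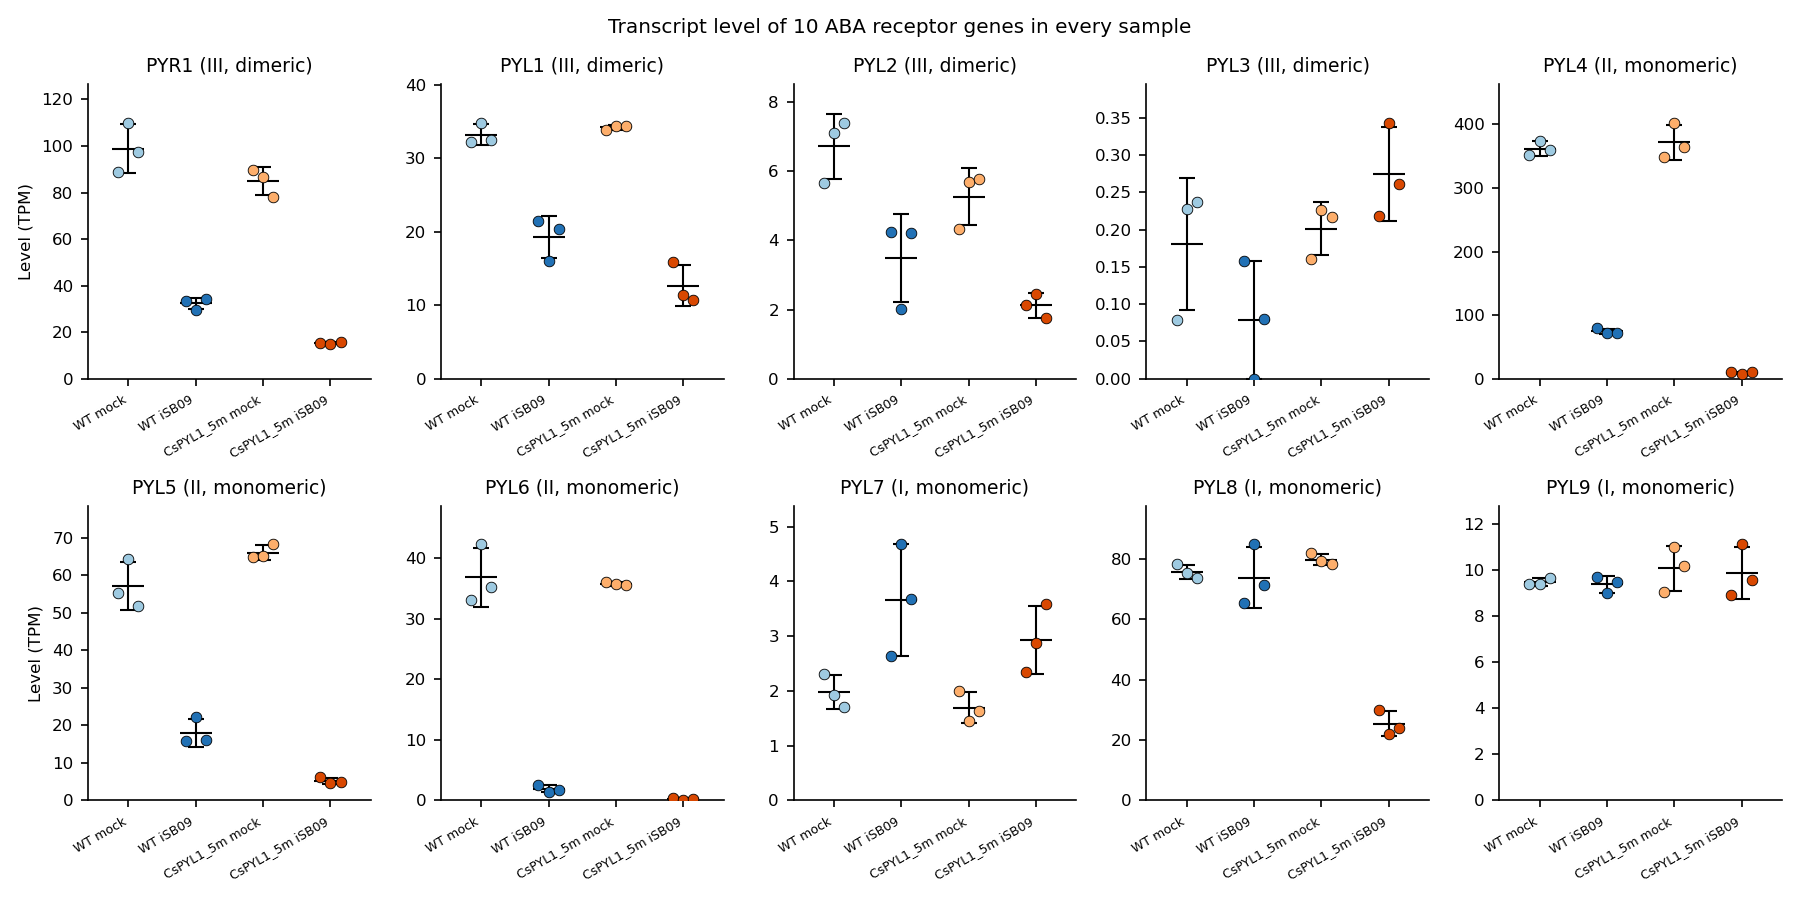
Level of each receptor gene (TPM, linear axes from 0 with a scale of their own) in every sample. Points are samples in the order of replicates 1 to 3, horizontal bars are group means and error bars are 1 SD (n = 3). The iSB09-treated samples of PYR1, PYL1, PYL2, PYL4, PYL5 and PYL6 lie below all mock-treated samples of the same genotype, those of PYL8 do so only in CsPYL1_5m plants, and those of PYL9 stay between 8.92 and 11.1 TPM.

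With iSB09 in WT, the receptors called lower were all 3 of subfamily II and PYR1, and none was called higher. These 4 were 4 of the 9 members tested, where 1.54% of the 19612 genes tested were called lower. By the adjusted p alone, 5 of the 9 were lower, beside 7.13% of all genes. The median log2 difference was -2.27 for the 3 genes of subfamily II, -0.91 for the 3 tested genes of subfamily III and -0.01 for the 3 genes of subfamily I, beside 0.01 for all genes tested. The ranges of mock and iSB09 samples did not overlap for 7 of the 10 members, beside 38.7% of all genes tested. PYL3 was not tested in any comparison, since it stayed below 1 TPM in every sample.

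Among the dimeric receptors in WT, PYR1 had 88.9, 109.9 and 97.6 TPM in mock samples and 33.3, 29.7 and 34.3 TPM with iSB09. All treated samples were thus far below all mock samples, and 32.9% of the mean mock level was left. The log2 difference was -1.59 (SE 0.103, adjusted p = 0.000429 with limma). PYL1 was at 32.2, 34.8 and 32.5 TPM in mock samples and at 21.5, 15.98 and 20.3 TPM with iSB09. It passed the p threshold but not the fold threshold, with a log2 difference of -0.78 (SE 0.122, limma adjusted p = 0.0087), which was -0.65 without replicate 2 of iSB09-treated WT. PYL2 was at 5.65, 7.09 and 7.39 TPM in mock samples and at 4.23, 2.01 and 4.21 TPM with iSB09, where the low value is that of the same replicate 2. Its log2 difference of -0.91 (SE 0.262) did not pass the test (adjusted p = 0.0581 with limma), and was -0.60 with an adjusted p of 0.0385 in limma without that replicate. PYL3 had 7 reads over the 3 mock libraries and 3 reads over the 3 treated ones. A difference was not detectable at this depth, as the ratio of mock to treated, 2.34, had a 95% counting interval of 0.534 to 14.02.

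All 3 receptors of subfamily II fell in WT, with no overlap between mock and treated samples. PYL4 went from the 351 to 374 TPM of the mock samples to 79.6, 71.9 and 72.3 TPM. This left 20.6% of its mean mock level, a log2 difference of -2.27 (SE 0.0758, limma adjusted p = 7.38e-05). PYL5, a receptor that raises drought tolerance when overproduced, was at 55.2, 64.2 and 51.9 TPM in mock samples and at 15.7, 22.3 and 16.05 TPM with iSB09, a log2 difference of -1.65 (SE 0.152, limma adjusted p = 0.00139). Its log2 difference was -1.81 without replicate 2 of the treated samples. PYL6, a receptor known to bind the jasmonate factor MYC2, was at 33.0, 42.3 and 35.2 TPM in mock samples and at 2.56, 1.41 and 1.76 TPM with iSB09. Its level was the most reduced of the members in WT, with 5.19% of the mean mock level left and a log2 difference of -3.97 (SE 0.190, limma adjusted p = 0.000157). The log2 difference of PYL6 was -3.82 without that replicate 2. The 3 treated libraries still held 53, 29 and 36 reads of PYL6, and the ratio of mock to treated reads, corrected for depth, was 19.7 with a 95% counting interval of 16.4 to 23.95.

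None of the monomeric receptors of subfamily I was called in WT. PYL8 was at 78.3, 75.5 and 73.6 TPM in mock samples and at 65.4, 84.9 and 71.3 TPM with iSB09, so that the treated samples lay on both sides of the mock samples. The log2 difference was -0.05 (-0.15 without replicate 2 of the treated samples, 0.04 without replicate 1) with a 95% interval of -0.29 to 0.20, which excludes a fall of the size seen for PYR1 or subfamily II. PYL9, a receptor tied to leaf senescence under drought, had 9.46 ± 0.155 TPM in mock and 9.37 ± 0.360 TPM in treated samples (SD, n = 3 each), a log2 difference of -0.01 with a 95% interval of -0.24 to 0.21, which changed sign (0.01) without that replicate 2. PYL7 was higher on average, at 2.31, 1.93 and 1.70 TPM in mock samples and 2.63, 4.68 and 3.67 TPM with iSB09. These values did not overlap, but rest on 27 to 74 reads per library, and the log2 difference of 0.73 (SE 0.215) did not pass the test (adjusted p = 0.0628 with limma). Without treated replicate 1 it was 0.92 and passed the p threshold only (limma adjusted p = 0.0314). Without treated replicate 2, which held the highest of these values, it was 0.55 and did not pass (limma adjusted p = 0.114). The counting did not use the strand, and 616 of the 1240 exonic bases of PYL7 (49.7%) lie opposite exons of AT4G01030 and AT4G03845, so that its reads cannot be told apart from theirs in that stretch. Whether such shared reads were counted or left out was not given in the sources used here. The level of PYL7 beside those of other members is therefore uncertain. AT4G01030 was at a mean of 2.35 TPM in mock and 2.31 TPM in treated WT, with a log2 difference of -0.0091 (SE 0.173) in a fit without the filter on low values, and AT4G03845 was listed at 0 in some samples of each group, so its difference is not given. No other member shared exonic bases with an annotated gene.

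In CsPYL1_5m plants, iSB09 lowered 7 of the 9 tested receptors, namely PYR1, PYL1, PYL2, PYL4, PYL5, PYL6 and PYL8, where 8.35% of the 19862 genes tested were called lower. PYL7 and PYL9 were not called in either direction. PYL6 was below 1 TPM in all treated samples and was tested only because of its mock level, which favoured its call. By the adjusted p alone 8 of the 9 differed, beside 66.4% of all genes. The median log2 difference was -5.26 in subfamily II, -1.42 in the 3 tested genes of subfamily III and -0.03 in subfamily I, beside a median of -0.16 for all genes tested. The median of all genes was -0.000989 after median-ratio scaling of the samples, with which PYL2 no longer passed the fold threshold and 6 members were called. The ranges of mock and treated samples did not overlap for 8 of the 10 members, beside 71.9% of all genes tested.

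**Figure D2:**
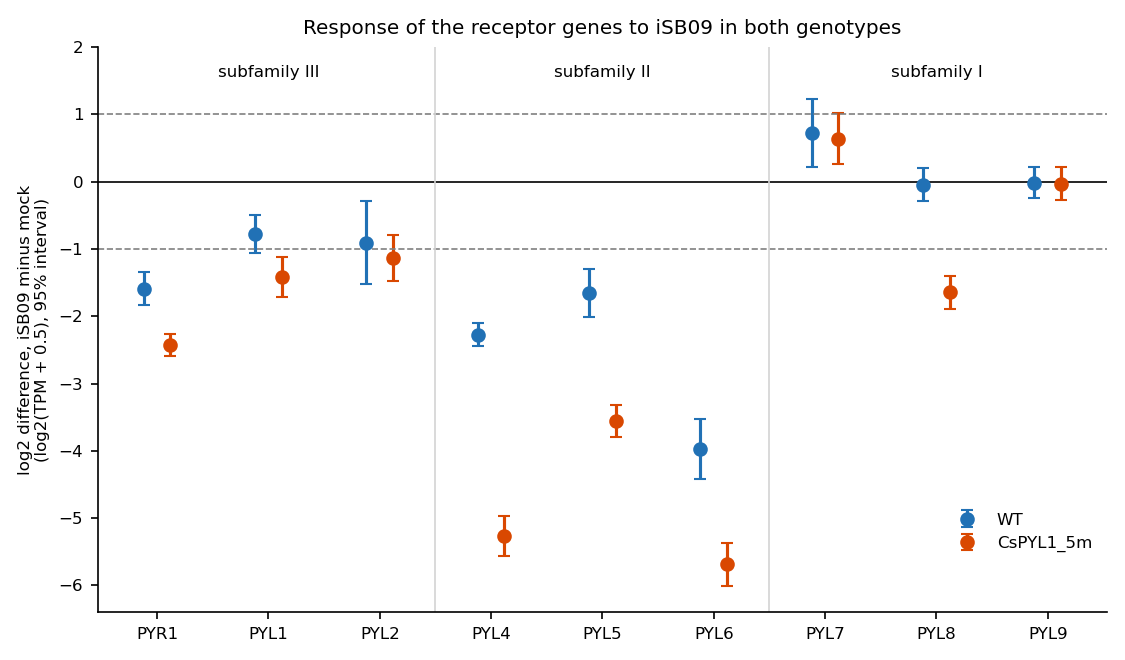
Log2 difference between iSB09 and mock samples (log2(TPM + 0.5), limma) for the 9 tested receptor genes in WT (blue) and CsPYL1_5m plants (orange), by subfamily. Points are estimates from 3 samples against 3, error bars are 95% intervals and dashed lines mark the fold threshold. PYL4 (-2.27 and -5.26), PYL5 (-1.65 and -3.56) and PYL6 (-3.97 and -5.68) fell most, PYL8 stood at -0.05 in WT and -1.65 in CsPYL1_5m plants, and PYL9 was near 0 in both.

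PYL4, the most abundant Arabidopsis receptor transcript of mock-treated CsPYL1_5m plants at 349, 402 and 364 TPM, was at 10.6, 7.21 and 10.04 TPM with iSB09. The mean fell 40.0-fold to 2.50% of the mock level, a log2 difference of -5.26 (SE 0.130, limma adjusted p = 5.12e-09). PYL5 went from 64.8, 65.1 and 68.2 TPM to 6.16, 4.69 and 4.73 TPM, which left 7.87% of its mock level. PYL6 went from 36.1, 35.7 and 35.5 TPM to 0.336, 0.0702 and 0.241 TPM. These treated samples held 10, 2 and 6 reads, so that the transcript was close to the floor of 3 reads, and the ratio of mock to treated reads, corrected for depth, was 167 with a 95% counting interval of 105.5 to 282. The log2 difference of PYL6 (-5.68, SE 0.141, adjusted p = 5.12e-09 with limma) was accordingly the member value that moved most with the pseudocount, from -4.93 to -6.93.

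The 3 dimeric receptors that were tested had smaller log2 differences than subfamily II in CsPYL1_5m plants, and all were called lower. PYR1 went from 89.8, 86.6 and 78.0 TPM to 15.4, 14.9 and 15.8 TPM, a log2 difference of -2.42 (SE 0.0716, limma adjusted p = 1.36e-08), with 18.1% left. The treated samples of PYR1 lay within 1 TPM of each other. PYL1 fell from 33.8, 34.3 and 34.4 TPM to 15.9, 11.4 and 10.7 TPM, which is a log2 difference of -1.42 (SE 0.130, limma adjusted p = 1.43e-05). PYL2 fell from 4.31, 5.69 and 5.78 TPM to 2.14, 2.46 and 1.76 TPM, a log2 difference of -1.14 (SE 0.149, limma adjusted p = 0.000143). PYL3, which was too low to be tested, was at 3 to 4 reads per mock library and 4 to 6 reads per treated library, a ratio of mock to treated of 0.739 with a 95% counting interval of 0.304 to 1.75.

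Within subfamily I the 3 genes went apart in CsPYL1_5m plants. PYL8 was at 81.9, 79.2 and 78.3 TPM in mock samples and at 30.1, 22.0 and 24.02 TPM with iSB09. All treated samples were below all mock samples, unlike in WT, and 31.8% of the mean was left, a log2 difference of -1.65 (SE 0.105, limma adjusted p = 1.4e-06). PYL9 had 9.05, 10.99 and 10.15 TPM in mock samples and 8.92, 11.1 and 9.57 TPM with iSB09, a log2 difference of -0.03 with a 95% interval of -0.27 to 0.21. It was 0.13 with median-ratio scaling, 0.03 without mock replicate 2 and 0.04 without treated replicate 1. PYL9 was thus the member with more than a few TPM that was steady in all 4 groups, and its 12 samples ran from 8.92 to 11.1 TPM. PYL7 went from 2.002, 1.44 and 1.64 TPM to 2.35, 2.87 and 3.59 TPM, a log2 difference of 0.64 (SE 0.166) that passed the p threshold (adjusted p = 0.00779 with limma) but not the fold threshold. AT4G01030, opposite to PYL7, was at -0.12 (SE 0.156) in the fit without the filter.

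Whether the response itself differed between genotypes was tested with the interaction term of one fit of all 12 samples. The fall was larger in CsPYL1_5m plants for PYL4 (difference between the log2 responses -2.99, SE 0.166, adjusted p = 2.89e-07 with limma), PYL5 (-1.91, SE 0.197, adjusted p = 3.08e-05), PYL6 (-1.71, SE 0.252, adjusted p = 0.000409) and PYL8 (-1.60, SE 0.160, adjusted p = 2.37e-05). These 4 of 9 tested members were called, where 3.6% of all 20081 genes tested were called lower, beside a median of -0.16 for all genes. PYR1 (-0.84, SE 0.126, adjusted p = 0.000464 with limma) and PYL1 (-0.64, SE 0.194, adjusted p = 0.0255 with limma) passed the p threshold and not the fold threshold, and 21.0% of all genes had an adjusted p that low with a value below 0. The value of PYL1 stood at -0.48 once samples were scaled by median ratios and then missed the p threshold (adjusted p = 0.0829 with limma). It also missed it when any one of 7 libraries was left out (limma adjusted p = 0.05 to 0.0666), namely replicates 1 and 3 of either WT group, replicate 3 of mock-treated CsPYL1_5m plants or replicates 2 and 3 of the treated ones, and passed in 12 of 21 alternatives. The value of PYL6 ran from -1.21 to -2.70 with the pseudocount, so its rank beside PYL5 and PYL8 is not fixed. Without a pseudocount, the mean mock level of PYL6 was 19.3 times the treated level in WT and 166 times in CsPYL1_5m plants. For PYL4 these were 4.85 and 40.0 times, so the rank of PYL6 beside PYL4 is not fixed either. PYL2 (-0.23, 95% interval -0.94 to 0.48), PYL7 (-0.09, -0.70 to 0.53) and PYL9 (-0.01, -0.32 to 0.29) did not pass, and the intervals were wide enough to hold the value of PYR1 in the case of PYL2 and that of PYL1 in the case of PYL7. Without replicate 2 of iSB09-treated WT, PYL2 stood at -0.53 (limma adjusted p = 0.0793) and PYL7 at 0.09, and PYL7 and PYL9 changed sign with median-ratio scaling (0.06 and 0.15) and in further settings. All 4 genes called for the difference between the responses are monomeric, but PYL8 was the only one of them outside subfamily II.

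Compared directly, the iSB09-treated samples of CsPYL1_5m plants had less PYR1, PYL4, PYL5, PYL6 and PYL8 than those of WT, which is 5 of 9 members tested where 4.49% of all genes were called lower. By the adjusted p alone 6 of the 9 were lower, with PYL1 as the sixth (-0.60), beside 34.9% of all genes. PYL1 passed in 11 of 16 alternatives, and missed the p threshold with median-ratio scaling (-0.42, limma adjusted p = 0.0775) and without WT replicate 1 or 3 or CsPYL1_5m replicate 2 or 3 (limma adjusted p = 0.0662 to 0.0894). PYL4 was at 74.6 ± 4.33 TPM in WT and 9.298 ± 1.83 TPM in CsPYL1_5m plants (SD, n = 3 each), 8.02-fold lower, with a log2 difference of -2.95 (SE 0.142, limma adjusted p = 1.98e-05). PYL6 had 118 reads over the 3 WT libraries and 18 over the 3 CsPYL1_5m libraries, a ratio of 8.55 after correction for depth, with a 95% counting interval of 5.18 to 14.9. It was below 1 TPM in all treated CsPYL1_5m samples. It was tested here only because of its level in treated WT, which favoured its call. PYL8 was at 73.8 ± 10 TPM in WT and 25.4 ± 4.202 TPM in CsPYL1_5m plants (SD, n = 3 each), a log2 difference of -1.53 (SE 0.140, limma adjusted p = 0.000247), and PYL5 at 18.0 ± 3.72 and 5.19 ± 0.839 TPM (SD, n = 3 each). The call of PYR1 (-1.05, SE 0.0786, adjusted p = 0.000111 with limma) stood near the fold threshold and was lost with median-ratio scaling (-0.87) and with RPKM values (-0.99). PYL2 did not pass (-0.56, adjusted p = 0.12 with limma), and stood at -0.86 with an adjusted p of 0.00186 in limma, below the fold threshold, without replicate 2 of iSB09-treated WT. PYL7 (-0.26, and -0.09 without that replicate) and PYL9 (0.07) did not pass either. The ranges did not overlap for 7 of the 10 members, beside 62.6% of all genes tested. These members include PYL3, which was not among the genes tested. It was higher in CsPYL1_5m plants, at 4 to 6 reads per library against 0 to 2 in WT, near the floor. The iSB09 samples used here are also those of the comparisons with mock, so the values are not independent of them.

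The summed level of the 10 receptors in WT was 682 ± 33.2 TPM with mock solution and 237 ± 4.55 TPM with iSB09, and in CsPYL1_5m plants it went from 689.7 ± 27.8 TPM to 83.3 ± 7.84 TPM (SD, n = 3 each), so that 34.7% and 12.1% of the mock sum was left. The transcript of CsPYL1_5m, itself a dimeric receptor, is in none of these sums or of the shares below. The subfamilies did not share the loss of the 10 genes evenly. Of subfamily II, 20.7% of the mock sum was left in WT and 3.10% in CsPYL1_5m plants. Of the dimeric subfamily III, 39.8% and 24.4% was left, and of subfamily I 99.6% and 41.7%. Taken as one class, the 6 monomeric receptors kept 33.4% in WT and 9.35% in CsPYL1_5m plants, values that hide the gap between subfamilies II and I.

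The dimeric receptors made up 19.3, 21.1 and 20.6% of the receptor sum in the mock samples of WT and 25.2, 19.7 and 25.3% with iSB09. Replicate 2 of the treated samples lay within the range of the mock samples, and the mean change was 3.06 percentage points with it and 4.89 without it. In CsPYL1_5m plants the dimeric share was 19.1, 17.6 and 17.5% in mock samples and 36.5, 37.8 and 35.4% with iSB09, a mean change of 18.5 percentage points with no overlap. Subfamily II, with 66.8% ± 0.125 of the sum of mock-treated WT and 68.7% ± 1.41 of that of mock-treated CsPYL1_5m plants, was down to 39.9% ± 1.58 and 17.6% ± 1.77 with iSB09 (SD, n = 3 each). Subfamily I went from 12.8% ± 0.823 to 36.7% ± 3.84 in WT and from 13.3% ± 0.575 to 45.9% ± 0.908 in CsPYL1_5m plants (SD, n = 3 each). Shares of one sum move together, and they are given here as a description with no test. PYL8 made up 86.9% ± 0.200 of subfamily I in mock-treated WT and 66.2% ± 5.94 in iSB09-treated CsPYL1_5m plants (SD, n = 3 each), where PYL9 had grown from 1.46% ± 0.0946 to 12.0% ± 2.36 of the receptor sum at a steady level of its own.

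**Figure D3:**
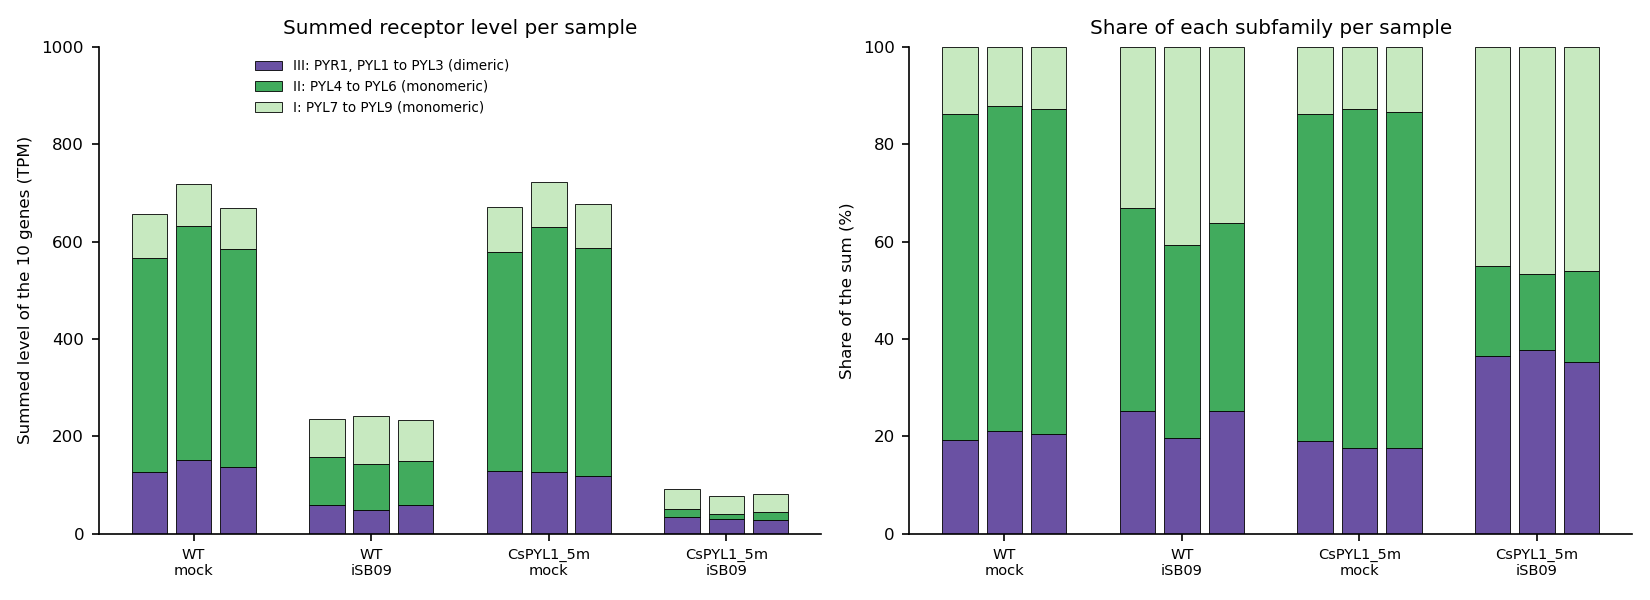
Left, level of the 10 receptor genes summed by subfamily (TPM, stacked from 0), with one bar per sample in the order of replicates 1 to 3. Right, the same sums as a share of the total (%). The sum was 656.6 to 719 TPM in mock-treated WT and 77.0 to 92.1 TPM in iSB09-treated CsPYL1_5m plants, and the dimeric share (purple) reached 35.4 to 37.8% in the latter.

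The order of the 10 receptor transcripts changed with these falls. In iSB09-treated WT, PYL4 (74.6 ± 4.33 TPM) and PYL8 (73.8 ± 10 TPM) shared the highest level with overlapping ranges, followed by PYR1 (32.5 ± 2.41 TPM), and then PYL1 and PYL5, which overlapped (SD, n = 3 each). PYL9 came next, and below it PYL2 overlapped with PYL7 and with PYL6, which did not overlap with each other. In iSB09-treated CsPYL1_5m plants PYL8 was highest on its own at 25.4 ± 4.202 TPM, and each of PYR1 (15.4 ± 0.444 TPM), PYL1 (12.7 ± 2.81 TPM), PYL9 (9.86 ± 1.119 TPM) and PYL4 (9.298 ± 1.83 TPM) overlapped with the next (SD, n = 3 each). PYL5 stood below them at 5.19 ± 0.839 TPM, PYL7 and PYL2 overlapped, and PYL3 and PYL6 overlapped at the floor. PYL4 thus went from the first to the fifth rank in CsPYL1_5m plants and PYL6 from the fifth to the last, while PYL9 went from the seventh to the fourth at a steady level.

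The genes outside the family whose log2(TPM + 0.5) was most like that of the 3 members with the largest falls were found among 15793 genes with a mean of 5 TPM or more. The 12 samples of such a comparison fall into 4 groups that share treatment and depth, so a high Pearson's r reflects the 4 group means above all, and is given as a description. For PYL4, r was 0.998 for AT1G66940, 0.997 for AT5G10290 and 0.997 for ERD6 (AT1G08930), a sugar transporter known to respond early to dehydration. AT1G66940 followed PYL4 down from 49.3 and 48.2 TPM in the mock-treated WT and CsPYL1_5m means to 13.8 and 2.47 TPM with iSB09. For PYL5, r was 0.995 for AT2G17705, 0.991 for ERD6 and 0.990 for AT2G31730. ERD6 was named for both, and its mean was 165.7 TPM in mock and 74.2 TPM in treated WT, against 186 and 25.8 TPM in CsPYL1_5m plants. For PYL6, r was 0.994 for HXK3 (AT1G47840), a hexokinase, 0.994 for AT1G11540 and 0.993 for CRK30 (AT4G11460), a cysteine-rich receptor-like kinase. CRK30 had the same shape at nearly the same level, with 40.7 TPM in both mock-treated genotypes, 3.86 TPM in iSB09-treated WT and 0.436 TPM in iSB09-treated CsPYL1_5m plants.

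Beside the receptors, 24 genes of the pathway and of receptor turnover, all outside the family, were counted by list. The clade A PP2Cs are the group that holds the phosphatases inhibited by the receptors. Of its 9 genes, 6 of the 7 tested were called higher with iSB09 in WT and 9 of 9 in CsPYL1_5m plants, where 2.28% and 9.17% of all genes tested were called higher. HAI1 and HAI2 in WT, and these with AHG1 and HAI3 in CsPYL1_5m plants, were under 1 TPM in mock samples and were tested only because of their levels with iSB09, so that they had to differ. Of the 5 PP2Cs that reached 1 TPM in all mock samples, 4 were called higher in WT and 5 in CsPYL1_5m plants. HAI1 had the largest PP2C value in both, with log2 differences of 3.82 in WT and 8.51 in CsPYL1_5m plants, and PP2CA was at 1.87 and 4.28. The other called PP2Cs were ABI1, ABI2, HAB1 and HAI2 in WT, at 1.43 to 2.51, and these with HAB2, AHG1 and HAI3 in CsPYL1_5m plants, at 1.95 to 7.86. Among the SnRK2 kinases that the PP2Cs hold inactive, none of 3 was called in WT (SnRK2.3 and SnRK2.6 had adjusted p-values of 0.0216 and 0.0232 in limma, below the fold threshold), while SnRK2.6, the kinase needed for stomatal closure, was called higher in CsPYL1_5m plants (1.78). Of ABF1 to ABF4 and ABI5, the transcription factors that these kinases phosphorylate, ABF3 was called higher in WT (1.56), and ABF2 (2.58), ABF3 (3.93), ABF4 (1.52) and ABI5 (2.98) in CsPYL1_5m plants. ABI5 was at 0.716 to 1.03 TPM in mock-treated CsPYL1_5m plants. It was tested there only because of its levels with iSB09, which favoured its call. All receptors that were called with iSB09 were thus lower and all called PP2Cs higher in both genotypes, while PYL7, PYL9 and, in WT, PYL1, PYL2 and PYL8 were not called.

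Genes that act on the turnover of receptor proteins stayed below the fold threshold, and none of 7 was called in either genotype (limma). These were DDA1, DET1, COP10 and DDB1A, parts of a ubiquitin ligase complex known to act on PYL8, and FREE1, VPS23A and ALIX, which are known in the sorting of receptors to the vacuole. At an unadjusted p below 0.05 in limma stood ALIX alone in WT, beside 6152 of all 19612 genes tested. All of them but ALIX did so in CsPYL1_5m plants, beside 13780 of all 19862 genes tested, and 66.4% of these genes had an adjusted p below 0.05. The parts of the ligase complex, named with values after these were seen, had log2 differences of both signs in CsPYL1_5m plants, at 0.75 for DDA1 (limma adjusted p = 1.05e-05), 0.28 for COP10 (0.0318), -0.52 for DET1 (0.000354) and -0.22 for DDB1A (0.0144).

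**Figure D4:**
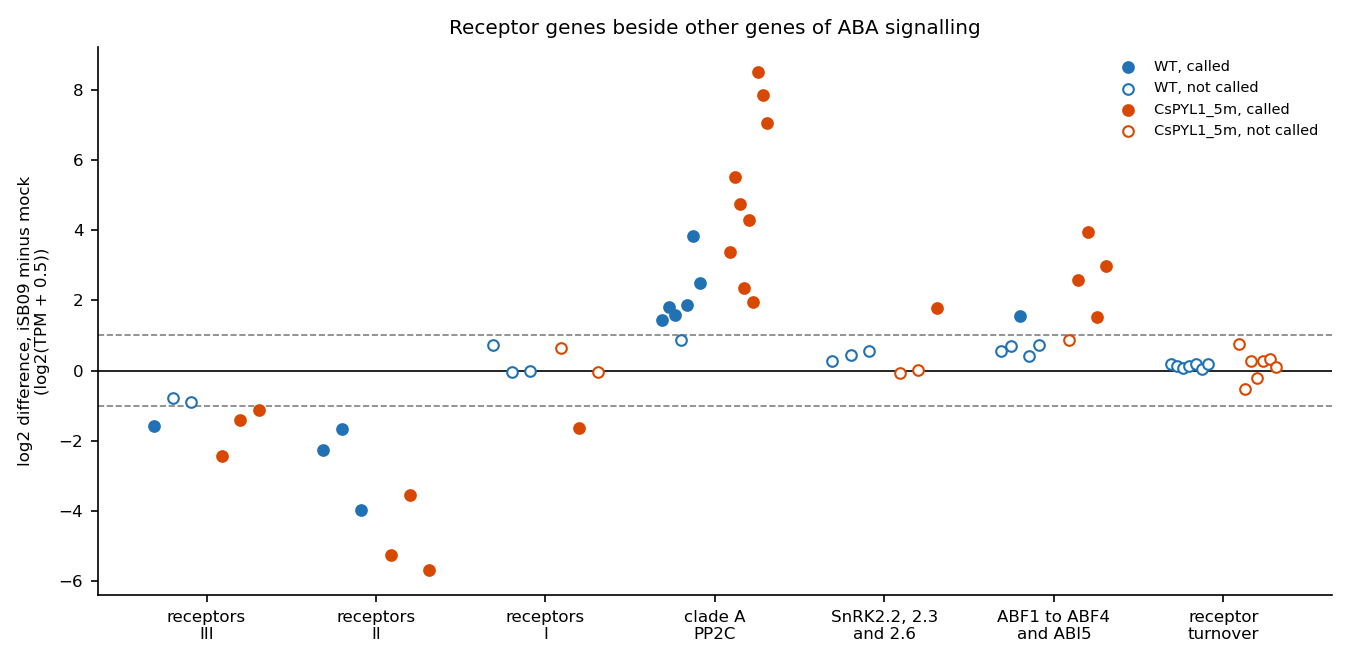
Log2 difference between iSB09 and mock samples (log2(TPM + 0.5), limma) of every tested gene in 7 lists, for WT (blue) and CsPYL1_5m plants (orange). Filled points passed both thresholds, open points did not, and dashed lines mark the fold threshold. The called receptors lie below 0 down to -5.68 for PYL6, and the called PP2Cs lie above 0 up to 8.51 for HAI1.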

How the data were processed

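RNA of 12 seedling samples, 3 in each of 4 groups taken from the labels, was sequenced as paired ends on a DNB-Seq instrument. According to the methods of the study, the authors used cutadapt for trimming and HISAT2 for mapping to TAIR10 of those pairs that kept more than 20 nucleotides, discarded pairs that did not map uniquely with SAMtools and used HTSeq-count with the Araport11 annotation to count reads in genes. The deposited tables are marked as unstranded counting. The authors deposited TPM values, which have one common sum over genes in each sample, and RPKM values for the same 37336 genes. TPM values were used for the main results and the deposited RPKM values as an alternative.

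A gene entered a fit where all 3 replicates of a group compared reached 1 TPM, and was fitted on log2(TPM + 0.5) with limma 3.58.1 (eBayes with trend, R 4.3.3), which replaced the count test of the study since the values are not counts. A log2 difference on this scale understates the change of low genes. P-values were adjusted by Benjamini-Hochberg over all genes tested, and a call required an adjusted p under 0.05 together with a log2 value beyond 1 in either direction. Each comparison of 2 groups was fitted on those groups alone, and the difference between the responses on all 12 samples. Reads per gene were estimated from the RPKM values and merged exon lengths, with lengths fitted to whole reads for PYL1 and PYL8. Of 27489 detected genes with an annotated length, 73.2% came out at whole reads in all samples. The tolerance was 0.01 for low counts and widened with the count, so that the highest counts met it in any case. Reads of members serve as a guide to precision, and counting intervals (95%, exact) cover counting error only. The libraries had 21502002 to 30696831 reads on genes. Promoters and exons were read from the RefSeq annotation of TAIR10.1, to which 37051 genes matched by locus. The promoter window of PYR1 is not reported here. Python 3.11.15 with pandas 2.3.3, numpy 2.4.6, scipy 1.17.1 and matplotlib 3.10.9 was used for the summaries, and the fits were tested on simulated data.

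All 10 members were named, other genes of the pathway lists by count with values for those called, and for each of the 3 members with the largest response in CsPYL1_5m plants the 3 genes outside the family with the highest Pearson's r. The members and the lists were chosen with earlier results of these data known. Samples with the same replicate number deviated together from their group means in WT, with correlations of 0.161, 0.298 and 0.198 across 19945 genes. In CsPYL1_5m plants the correlations were 0.0972, -0.0218 and -0.136. Whether the numbers pair the samples of either genotype was not tested. The block by replicate number was an alternative in every comparison, beside other pseudocounts (0.1 and 1), filters, scaling, RPKM, no trend, a joint fit of the 12 samples and the omission of each sample in turn.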

Additional observations from a re-analysis of the deposited data

Results flagged for a closer look

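The response to iSB09 differed between the genotypes, by the interaction term of the fit of all 12 samples (limma, adjusted p below 0.05), for 6 of the 9 receptor genes tested. Given as the log2 response of CsPYL1_5m plants minus that of WT, the values were -2.99 for PYL4, -1.91 for PYL5, -1.71 for PYL6, -1.60 for PYL8, -0.84 for PYR1 and -0.64 for PYL1. The value of PYL1 had an adjusted p below 0.05 in 12 of 21 alternatives (limma, highest 0.0829), and that of PYL6 ran from -1.21 to -2.70 with the pseudocount. PYL8 is the one of these whose response in WT had an interval that included 0. An adjusted p below 0.05 for a lower response in CsPYL1_5m plants was found for 21.0% of all genes tested.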

How the results depend on the processing

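Of 764 member values under alternatives, 759 kept their call, or lack of one, by both thresholds jointly, and 5 lost it by the fold. The adjusted p alone crossed 0.05 in 20, of which 14 were losses, all of PYL1 between treated samples or for the difference between the responses, and 6 were gains of PYL2 or PYL7. The sign changed in 21, none of which had an adjusted p below 0.05 in the reported fit. In WT, PYL2 passed the p threshold with RPKM (limma adjusted p = 0.0486) and in the joint fit (0.0127), where PYL7 did too (0.0193). With RPKM, 3 receptor genes rather than 5 were called lower in CsPYL1_5m plants than in WT with iSB09, as PYR1 stood at -0.99 and PYL6 was under the minimum of 1 RPKM and so not tested. With median-ratio scaling, alone or together with the replicate block, PYL2 in the response of CsPYL1_5m plants (-0.998) and PYR1 in the comparison of treated samples (-0.87) fell below the fold threshold. With the replicate block the numbers of receptor genes called were 4 in WT, 7 in CsPYL1_5m plants, 0 between mock samples, 5 between iSB09 samples and 4 for the difference between the responses, as without it. Leaving out each sample in turn gave these same counts (4 to 4, 7 to 7, 0 to 0, 5 to 5 and 4 to 4). Of all genes, 750 were called in WT, but 487 without mock replicate 2 and 420 without mock replicate 3, and 13 were called between mock samples but 5 to 14 when a sample was left out, 6 with no filter and 7 with no trend. As a difference of mean log2(TPM + 0.5) between dimeric and monomeric members, the change with iSB09 was 0.33 in WT and 1.38 in CsPYL1_5m plants, a scale on which each member weighs the same. The mock and treated samples of WT overlapped on it through treated replicate 2, without which, an alternative chosen after seeing the data, the change was 0.51. PYL3 and PYL10 to PYL13 had too few reads at this depth for any comparison.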

Other observations

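Members outside subfamily II also had close neighbours in their pattern over the 12 samples, given here as values with no test. For PYL8, whose level was lower with iSB09 in CsPYL1_5m plants and not in WT, the genes with the highest Pearson's r of log2(TPM + 0.5) among 15793 genes were AT2G28660 (0.993), AT4G34790 (0.991) and AT5G51140 (0.990). AT4G34790 had mean levels of 8.67 TPM in mock-treated and 8.36 TPM in iSB09-treated WT, and 9.04 and 0.926 TPM in CsPYL1_5m plants. For PYR1 they were CSLA11 (AT5G16190, 0.993), ALDH2C4 (AT3G24503, 0.992) and AT5G62440 (0.992). PYL9, which stayed level in all groups, had an r of at most 0.767 (AT1G69680). These genes were looked up after the values of the members were seen.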
